A study of Mus musculus with 12 samples.

Results

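Described here are 30 mouse genes of sterol and fatty acid synthesis, followed from undifferentiated embryonic stem cells into embryoid bodies and monolayer cultures. Members were the non-control array probes that carry the name of a listed gene. The list held 59 probes, of which 57 passed the filter on dim probes, and each gene was represented by its passing probe with the highest mean. All 30 genes were measured among 17722 genes tested, and every representative probe was well above background on all 12 arrays. The members comprise 18 sterol enzymes (7 of the mevalonate steps and 11 of the squalene and sterol steps), 4 genes of regulation and transport, and 8 fatty acid genes.

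Total RNA of strain 129 embryonic stem cells was labelled with Cy3 and hybridised to 12 one-colour arrays, 2 for each of 6 groups. The groups were cells in the undifferentiated state, whose titles read LIF (leukaemia inhibitory factor, the cytokine that holds mouse stem cells undifferentiated), embryoid bodies (EB, floating cell aggregates) of days 1, 3 and 4, and cells grown as a monolayer (ML) for 1 or 3 days. Within a group the samples are marked as clone 1 and clone 2 and stem from separate experiments by different people, so p-values measure the spread between these samples only. The culture medium, feeder cells and serum are not given in the sources used here. The title of the series concerns gene expression tied to the developing epiblast.

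Cholesterol is built from acetyl-CoA through mevalonate, isoprenoid units, squalene and a series of sterol intermediates, and long-chain fatty acids are built from the same acetyl-CoA by ATP citrate lyase, acetyl-CoA carboxylase and fatty acid synthase before elongases and desaturases modify them. Transcription of both pathways is driven by the sterol regulatory element-binding proteins, encoded by Srebf1 and Srebf2. These are held in the endoplasmic reticulum by the Insig proteins while sterol is plentiful, and act at promoters together with the factors NF-Y, which binds CCAAT boxes, and Sp1, which binds GC boxes. In the early mouse embryo, loss of several sterol enzymes disturbs signalling by Hedgehog proteins, which carry cholesterol.

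The 250 bases before the annotated start were available for 23 members from RefSeq (build GRCm38.p6), and the promoters of 5 genes are shown. Hmgcs1 is shown for its sterol regulatory element. Mvk, Insig1, Fasn and Acly are examples of members whose levels differed from undifferentiated cells in at least 1 comparison below. Acat2, Ebp, Sc5d and Hsd17b7 also differed and had a window, but are not shown. Each promoter shown runs 5′ to 3′ on the strand of its gene. Capitals mark matches to CCAAT on either strand (CCAAT or ATTGG) and to the sterol regulatory element TCACNCCAC.
Hmgcs1, chr13:119690101-119690350, plus strand: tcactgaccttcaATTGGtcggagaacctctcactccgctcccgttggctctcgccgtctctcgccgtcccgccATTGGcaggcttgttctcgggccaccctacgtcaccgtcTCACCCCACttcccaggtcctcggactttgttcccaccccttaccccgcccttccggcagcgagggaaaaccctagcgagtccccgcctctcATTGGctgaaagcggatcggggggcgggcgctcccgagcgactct
Mvk, chr5:114444019-114444268, plus strand: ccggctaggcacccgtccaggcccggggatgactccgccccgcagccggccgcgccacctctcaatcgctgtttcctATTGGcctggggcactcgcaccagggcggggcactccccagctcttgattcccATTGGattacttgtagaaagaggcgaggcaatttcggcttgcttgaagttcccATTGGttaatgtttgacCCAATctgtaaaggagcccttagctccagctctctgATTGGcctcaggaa
Insig1, chr5:28071162-28071411, plus strand: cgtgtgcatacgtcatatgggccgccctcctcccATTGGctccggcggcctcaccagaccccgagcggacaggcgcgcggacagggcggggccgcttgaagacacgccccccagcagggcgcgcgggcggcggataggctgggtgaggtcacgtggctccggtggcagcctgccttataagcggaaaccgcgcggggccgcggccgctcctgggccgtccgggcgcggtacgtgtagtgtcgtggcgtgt
Fasn, chr11:120824548-120824797, minus strand: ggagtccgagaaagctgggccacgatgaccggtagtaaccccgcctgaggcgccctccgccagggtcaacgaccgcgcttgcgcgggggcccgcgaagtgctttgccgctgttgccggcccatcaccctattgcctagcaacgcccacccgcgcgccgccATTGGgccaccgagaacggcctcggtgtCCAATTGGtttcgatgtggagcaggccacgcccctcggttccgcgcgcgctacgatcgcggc
Acly, chr11:100528001-100528250, minus strand: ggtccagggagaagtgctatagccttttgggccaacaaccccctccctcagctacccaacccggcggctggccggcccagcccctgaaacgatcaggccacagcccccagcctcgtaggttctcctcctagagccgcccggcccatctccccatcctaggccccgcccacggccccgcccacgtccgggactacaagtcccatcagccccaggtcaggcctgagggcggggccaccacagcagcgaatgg
Mvk holds 5 CCAAT matches in this window and Hmgcs1 3, while Acly holds 0. Acat2, which is not shown, also holds 0, the only sterol enzyme with a window to do so. Fasn holds 3, of which 2 lie on opposite strands and overlap.

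A CCAAT match stood in 18 of the 23 members with a window, against 37.49% of 27025 genes with windows of the same length. It stood in 14 of 15 sterol enzymes, in 3 of 3 genes of regulation and transport, and in 1 of 5 fatty acid genes, which was Fasn. GC boxes (GGGCGG, either strand) stood in 19 of 23 members, against 35.36% of all genes, with 14 of 15 among the sterol enzymes and 2 of 5 among the fatty acid genes. The sterol regulatory element TCACNCCAC was found in 1 of 23 members, Hmgcs1, where it begins 137 bases before the start, against 1.225% of all genes. The E-box CACGTG stood in 4 of 23 members, against 6.86% of all genes. A match describes the letters of the window and is no evidence of binding, and no window was used for Fdps, Fdft1, Sqle, Stard4, Scd1, Scd2 or Fads1.

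Between 52.1% and 63.8% of the 43379 non-control spots of an array passed the well-above-background flag, and values below are log2 signal relative to the array's 75th percentile. Undifferentiated cells lay on 1 slide and scan day of their own, and so did EB day 4, which was also read on another scanner. Comparisons with either group therefore cannot be told apart from slide and scan day. The remaining 4 groups shared 1 scan day, where EB day 1 shared a slide with EB day 3, and ML day 1 with ML day 3. Among these groups, culture format cannot be told apart from slide. Spike-in control spots (E1A) averaged 0.69 to 1.24 on that shared scan day, against -0.21 and -0.05 in EB day 4 and -0.24 and -0.02 in undifferentiated cells.

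The ML day 3 arrays stood apart from each other for these genes. Replicate 2 was higher than replicate 1 for 30 of 30 members, and 14 of them differed at least 2-fold, a share of 46.7% against 18.3% of all genes. The difference was widest in sterol enzymes, of which 11 of 18 differed at least 2-fold, with a median log2 difference of 1.31. For the 8 fatty acid genes the median was 0.77, with 2 at least 2-fold apart. In the other 5 groups no member differed by 2-fold, although EB day 4 replicate 1 was higher than replicate 2 for 29 of 30 members.

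The genes that differed most between the ML day 3 arrays were chosen after their values were seen. Fdps, which makes farnesyl diphosphate, read 2.32 and 4.89. Dhcr7, the reductase of the last step to cholesterol, read 1.51 and 4.04, and Hmgcs1, the cytosolic HMG-CoA synthase, read 3.12 and 5.36. The replicate 1 array was the lowest of all 12 for 24 of 30 members, among them all 7 mevalonate enzymes, 8 of 11 squalene and sterol enzymes, 4 of 4 genes of regulation and transport and 5 of 8 fatty acid genes. Its E1A spike-ins, at 0.69, were also below the 0.98 to 1.24 of the other arrays of that scan day, and the part of this in the result was not tested. Where the call of a member or a count of member directions turned on this array, the value without it is given.

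**Figure D1:**
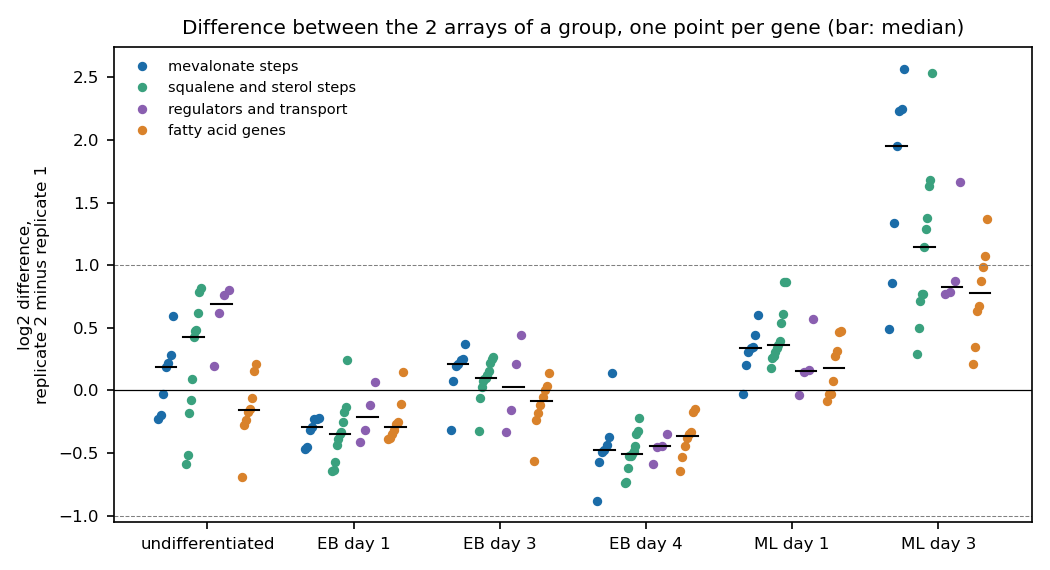
Difference between the arrays of each group, as log2 signal of replicate 2 minus replicate 1 (vertical axis), with 1 point per gene, colours for the gene classes and a bar at each class median. Dashed lines mark a 2-fold difference, which only ML day 3 points pass, up to 2.57 for Fdps.

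Between groups, the highest mean fell in an embryoid body group for 26 of 30 members: EB day 1 for 13, EB day 3 for 4 and EB day 4 for 9. The remaining 4, Insig1, Acly, Elovl6 and Fads1, were highest in undifferentiated cells. The lowest mean fell in ML day 3 for 17, ML day 1 for 6 and undifferentiated cells for 7. With ML day 3 replicate 2 in place of the ML day 3 mean, the highest groups were the same, but the lowest fell in ML day 1 for 16, undifferentiated cells for 10, ML day 3 for 3 (Hsd17b7, Insig1 and Acly) and EB day 3 for 1 (Fdft1). No sterol enzyme was highest in undifferentiated cells or in monolayers. These orders are descriptions, since the arrays of neighbouring groups often overlap, and in bulk RNA fewer cells of a type and less RNA per cell cannot be told apart.

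**Figure D2:**
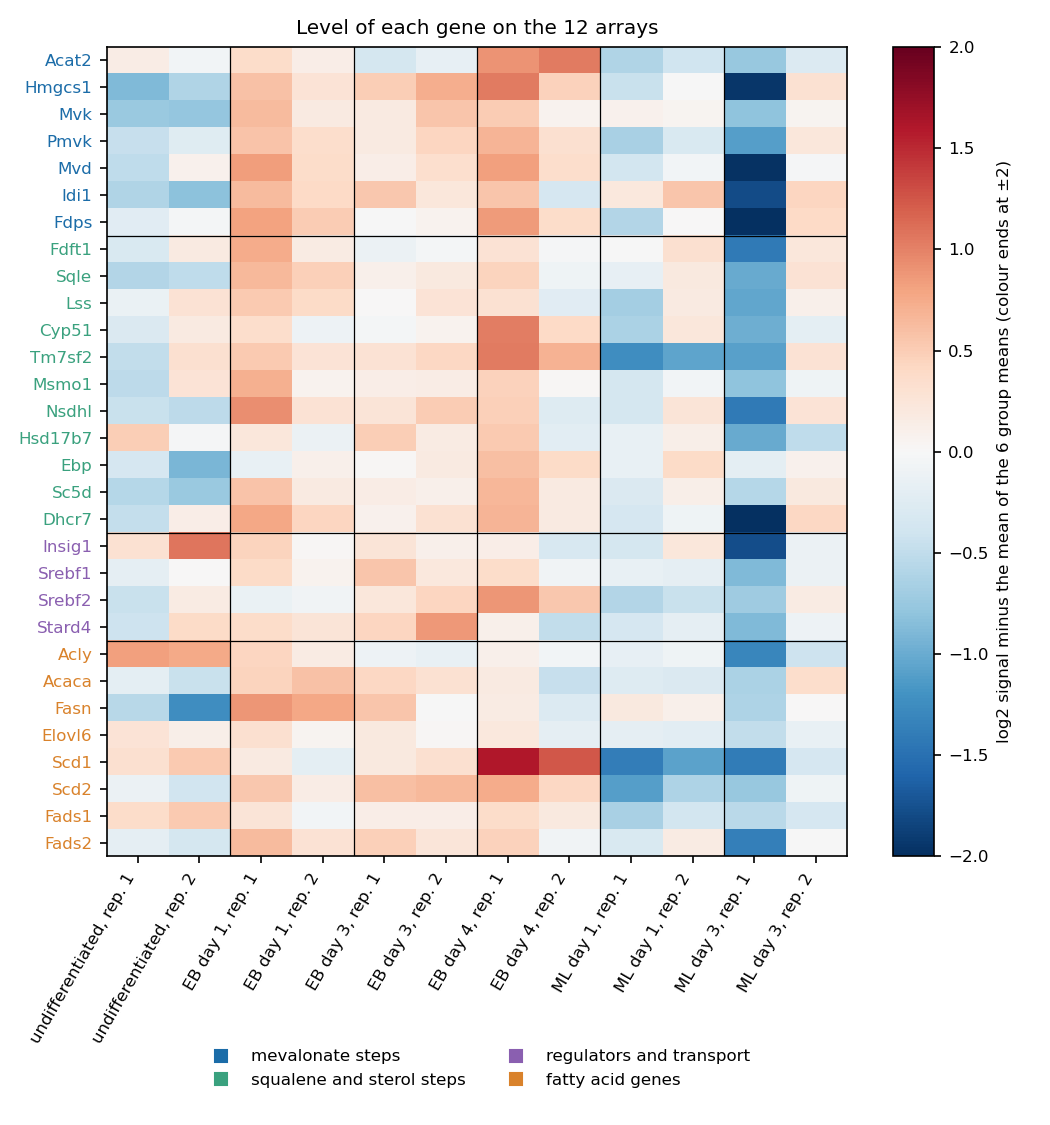
Level of each of the 30 genes (rows, coloured by class) on the 12 arrays (columns), as log2 signal minus the gene's mean of the 6 group means. Most sterol rows are above their mean in the embryoid body columns, and ML day 3 replicate 1 is the lowest array for 24 of 30 genes.

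Averaged over the 18 sterol enzymes after centring each gene on its mean of group means, the set stood at -0.30 ± 0.12 in undifferentiated cells, then at 0.41 ± 0.23, 0.19 ± 0.08 and 0.42 ± 0.34 in EB days 1, 3 and 4 (SD, n = 2). It stood at -0.17 ± 0.28 and -0.55 ± 0.96 in ML days 1 and 3. The 8 fatty acid genes averaged 0.01 ± 0.11 in undifferentiated cells, then 0.34 ± 0.17, 0.25 ± 0.09 and 0.29 ± 0.27 along the embryoid body days, and -0.39 ± 0.13 and -0.50 ± 0.55 along the monolayer days. Both sets were thus above their mean on every embryoid body array.

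The gap between the sets, sterol minus fatty acid, was -0.47 and -0.15 on the undifferentiated arrays. It was 0.11 and 0.02 in EB day 1, -0.17 and 0.06 in EB day 3, and 0.18 and 0.08 in EB day 4. In monolayers it was 0.11 and 0.32 at day 1 and -0.34 and 0.24 at day 3. The sterol set was the lower one on both undifferentiated arrays, and the higher one on both arrays of EB day 1, EB day 4 and ML day 1. The gap is a description with no test, and its sign differed between the arrays of EB day 3 and of ML day 3.

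**Figure D3:**
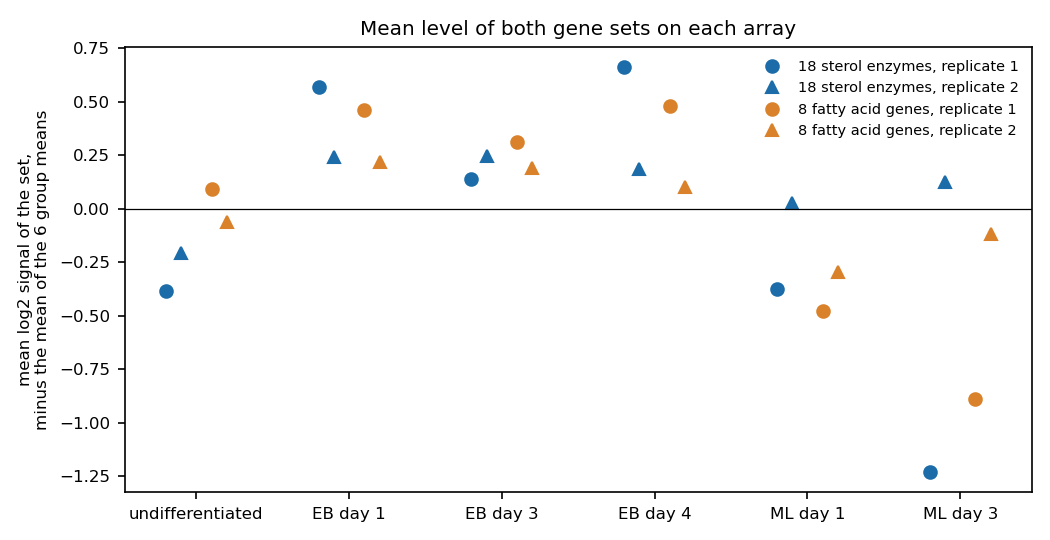
Mean centred log2 level (vertical axis) of the 18 sterol enzymes and the 8 fatty acid genes on each array, with circles for replicate 1 and triangles for replicate 2. Both sets lie above 0 on all embryoid body arrays, and ML day 3 replicate 1 holds the lowest value of both sets, -1.23 and -0.89.

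Against undifferentiated cells, limma called 2 of 30 members in EB day 1, where 13.4% of all genes were called. It called 3 in ML day 1 (18% of all genes), 3 in EB day 3 (23.7%), 5 in ML day 3 (23.5%) and 7 in EB day 4 (40.8%), at a Benjamini-Hochberg adjusted p under 0.05 over all genes. In each of these comparisons the share of members called was below the share of all genes called. The fit used 1 spread per gene over all 6 groups. The wide spread of members between the ML day 3 arrays therefore entered the standard errors of every comparison. Its part in these shares was not tested. The 21 calls in all comparisons fell on 11 members, 5 of them sterol enzymes, 5 fatty acid genes and 1 of regulation, and 19 members were not called in any. Leaving out 1 array of the groups compared ended 20 of these calls in at least 1 case. The call of Acly in ML day 3 held in these fits, but not with the compared groups fitted alone (limma adjusted p = 0.0762). Acly had 1 passing probe of its 2.

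Most sterol enzymes were above undifferentiated cells in embryoid bodies, whether called or not. In EB day 1, 17 of 18 sterol enzymes were above undifferentiated cells (median log2 difference 0.78), in EB day 3 16 of 18 (0.44) and in EB day 4 16 of 18 (0.78), while 55.6%, 52.7% and 48.1% of all genes were. Of the fatty acid genes, 4, 4 and 5 of 8 were above. In ML day 1, 8 of 18 sterol enzymes (median -0.02) and 3 of 8 fatty acid genes (-0.50) were above undifferentiated cells. The sterol value there turned without 1 array, to 15 of 18 (0.22) without ML day 1 replicate 1 and to 12 of 18 (0.31) without undifferentiated replicate 2. In ML day 3 it was 5 of 18 (-0.32) and 2 of 8 (-0.47), but without ML day 3 replicate 1 it was 15 of 18 (0.56) and 4 of 8 (-0.09). The sterol medians also moved with single arrays or the scaling. In EB day 1 the median was 0.44 with quantile normalization and 0.45 with the authors' values, with 17 of 18 still above. In EB day 3 it was 0.24, with 13 of 18 above, without undifferentiated replicate 1, and 0.68 without their replicate 2. In EB day 4 it was 0.48 without EB day 4 replicate 1. These 5 comparisons share the same undifferentiated arrays.

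Members whose arrays did not overlap those of undifferentiated cells were counted, with the share of all genes in brackets. Both EB day 1 arrays lay above both undifferentiated arrays for 17 of 30 members (37.8% of all genes) and below them for 3 (27%). For ML day 1 the counts were 8 above (41.5%) and 8 below (25.5%), for EB day 3 17 above (34.6%) and 4 below (30.2%), for ML day 3 1 above (30%) and 7 below (26.7%), and for EB day 4 19 above (35.3%) and 2 below (38.7%). The ML day 3 counts without its replicate 1 were 15 above (44.7%) and 7 below (34.3%). An unadjusted p under 0.05 was reached by 5 members in EB day 1 (32.5% of all genes), 8 in ML day 1 (35.2%), 7 in EB day 3 (38%), 7 in ML day 3 (38.2%, or 10 members and 32.2% without its replicate 1) and 10 in EB day 4 (50.1%). With all 12 arrays, the share of members at this level was below that of all genes in each of these comparisons. In ML day 3 without its replicate 1 that share was not below.

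Different probes of a member often disagreed against undifferentiated cells. Of 17 members with several passing probes, all probes had 1 sign for 11 in EB day 1, 9 in ML day 1, 9 in EB day 3, 9 in ML day 3 and 8 in EB day 4. For the called members with several probes the signs were the same, except for Hsd17b7.

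Among the mevalonate enzymes, Mvk and Acat2 were called. Mvk, mevalonate kinase, read 0.45 and 0.42 in undifferentiated cells, then 1.82 and 1.37, 1.37 and 1.74, and 1.69 and 1.26 in EB days 1, 3 and 4. It read 1.28 and 1.25 in ML day 1 and 0.39 and 1.24 in ML day 3. The undifferentiated arrays were below every other array except ML day 3 replicate 1. Mvk was 2.23-fold higher in EB day 1 than in undifferentiated cells (log2 1.15 ± 0.31 SE, limma adjusted p = 0.041), with log2 differences of 1.12 in EB day 3 (adjusted p = 0.0304) and 1.04 in EB day 4 (0.0254). Both of its probes were higher in these 3 comparisons, with the other probe at 0.83, 0.58 and 0.49. With the mean of probes none of the 3 calls was made. The calls in EB days 1 and 3 were also lost without the filter on dim probes and with the compared groups alone. That in EB day 1 was lost with the authors' values too. The call was lost without any 1 of the 4 arrays in EB day 1 (adjusted p 0.0860 to 0.220) and in EB day 3 (0.0583 to 0.158), and without either undifferentiated array or EB day 4 replicate 1 in EB day 4 (0.0751 to 0.150).

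Acat2, the cytosolic acetyl-CoA acetyltransferase that makes the first intermediate, read -1.27 and -1.47 in undifferentiated cells, then -1.06 and -1.29, -1.77 and -1.58, and -0.52 and -0.38 in EB days 1, 3 and 4. In monolayers it read -2.01 and -1.81 at day 1 and -2.18 and -1.68 at day 3. Both EB day 4 arrays were the highest of all 12. Acat2 was 2.34-fold higher in EB day 4 than in EB day 3 (log2 1.23 ± 0.23 SE, adjusted p = 0.0118), the only member called in that comparison, where 12.7% of all genes were called. Against undifferentiated cells the log2 difference in EB day 4 was 0.93 ± 0.23 (adjusted p = 0.0104). Both calls were lost without EB day 4 replicate 2 (adjusted p 0.0812 and 0.0650), the call against EB day 3 without EB day 3 replicate 1 (0.0917), and the call against undifferentiated cells without their replicate 2 (0.0524). The probe also lists the near-identical paralogue Acat3, so signal of both genes cannot be told apart.

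The other mevalonate enzymes were not called in any comparison. Of this class the range of group means was widest for Mvd, the diphosphomevalonate decarboxylase, at 1.60 and narrowest for Pmvk, phosphomevalonate kinase, at 0.98. Mvd read 2.37 and 2.97 in undifferentiated cells, then 3.71 and 3.24, 3.00 and 3.21, and 3.70 and 3.22 along the embryoid body days, with 2.51 and 2.82 in ML day 1 and 0.90 and 2.85 in ML day 3. Pmvk read 3.83 and 4.05 in undifferentiated cells, then 4.85 and 4.63, 4.46 and 4.71, and 4.97 and 4.60 along those days, with 3.63 and 3.97 in ML day 1 and 3.18 and 4.52 in ML day 3. For Pmvk all 6 embryoid body arrays lay above both undifferentiated arrays. Hmgcs1 had the largest difference of the class in EB day 4 against undifferentiated cells, 1.49 ± 0.59, which was not called (adjusted p = 0.0687). Its other probes differed by 0.16 and -1.26 there, the last being well above background on 4 of 12 arrays.

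Of the 11 squalene and sterol enzymes, Ebp, Sc5d and Hsd17b7 were called. Ebp, the sterol isomerase, read 4.36 and 3.77 in undifferentiated cells, then 4.54 and 4.79, 4.71 and 4.87, and 5.29 and 5.07 in EB days 1, 3 and 4. It read 4.54 and 5.08 in ML day 1 and 4.49 and 4.78 in ML day 3, so all 10 arrays of differentiating cells were above both undifferentiated arrays. Ebp was 2.17-fold higher in EB day 4 than in undifferentiated cells (log2 1.12 ± 0.27 SE, adjusted p = 0.0103). The call was lost without undifferentiated replicate 2 (adjusted p = 0.0658) or EB day 4 replicate 1 (0.0672).

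Sc5d, the sterol C5-desaturase, read 1.32 and 1.14 in undifferentiated cells, then 2.46 and 2.07, 2.04 and 1.98, and 2.56 and 2.07 along the embryoid body days, with 1.60 and 2.00 in ML day 1 and 1.31 and 2.09 in ML day 3. It was 2.12-fold higher in EB day 4 than in undifferentiated cells (log2 1.08 ± 0.30 SE, adjusted p = 0.0189), and its other probe differed by 0.94. The call was lost without undifferentiated replicate 2 (adjusted p = 0.0815) or EB day 4 replicate 1 (0.127). In EB day 1 the difference was 1.03 (adjusted p = 0.0531), where the other probe differed by -0.05.

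Hsd17b7, the 3-ketosteroid reductase of the pathway, read -1.02 and -0.52 in ML day 3, against 0.48 and -0.03 in undifferentiated cells. It was lower there by a log2 of -0.997 ± 0.32 (SE, adjusted p = 0.0492), and both ML day 3 arrays were the lowest of the 12. The call rests on 1 probe (chromosome 1, 171882591 to 171882650 in build mm9). The other probe (171880203 to 171880262) read -1.94 and -1.60 in ML day 3, against -1.67 and -2.15 in undifferentiated cells, a difference of 0.14 in the opposite direction. The call was also lost without ML day 3 replicate 1 (adjusted p = 0.205) or either undifferentiated array (0.197 and 0.0635).

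The widest range of group means of this class belonged to Tm7sf2, a sterol C14-reductase, at 2.02 and the narrowest to Msmo1, the C4-methylsterol oxidase, at 0.84. Tm7sf2 read 0.89 and 1.70 in undifferentiated cells, then 1.89 and 1.64, 1.67 and 1.79, and 2.42 and 2.07 along the embryoid body days. In monolayers it read 0.14 and 0.32 at day 1 and 0.30 and 1.67 at day 3. Both ML day 1 arrays were thus below both undifferentiated arrays and all embryoid body arrays. Msmo1 read 4.40 and 5.19 in undifferentiated cells, a spread that covered all but 3 of the other 10 arrays.

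Among regulation and transport, Insig1, which retains the sterol regulatory element-binding proteins in the endoplasmic reticulum, read -0.78 and -0.02 in undifferentiated cells, then -0.65 and -1.06, -0.83 and -0.99, and -0.96 and -1.42 along the embryoid body days. It read -1.44 and -0.87 in ML day 1 and -2.87 and -1.21 in ML day 3. It was 3.12-fold lower in ML day 3 than in undifferentiated cells (log2 -1.64 ± 0.50 SE, limma adjusted p = 0.042), with the other probe at -1.14. The call was not made with quantile normalization, the mean of probes, no filter on dim probes or the compared groups alone. The call was lost without ML day 3 replicate 1, where the difference was -0.81 (adjusted p = 0.199), or without undifferentiated replicate 2 (-1.26, 0.204).

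The other 3 genes of this class were not called. Srebf1 had the narrowest range of group means, 0.88, and read 4.07 and 4.27 in undifferentiated cells, then 4.64 and 4.33, 4.81 and 4.47, and 4.62 and 4.18 along the embryoid body days, with 4.12 and 4.08 in ML day 1 and 3.38 and 4.15 in ML day 3. Srebf2 differed by 0.84 ± 0.32 in EB day 4 against undifferentiated cells (adjusted p = 0.0586), where its other 3 probes differed by -0.45, -0.000655 and 0.12. Stard4, a cytosolic sterol carrier, had differences against undifferentiated cells between -0.47 and 0.66 over the 5 groups.

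The fatty acid genes held most of the lower calls. Acly, the ATP citrate lyase that supplies cytosolic acetyl-CoA to both pathways, read 2.85 and 2.78 in undifferentiated cells, then 2.45 and 2.20, 1.93 and 1.87, and 2.12 and 1.97 in EB days 1, 3 and 4. It read 1.86 and 1.93 in ML day 1 and 0.73 and 1.60 in ML day 3. Both undifferentiated arrays were above all 10 others. Acly was 3.14-fold lower in ML day 3 than in undifferentiated cells (log2 -1.65 ± 0.27 SE, adjusted p = 0.00394), and the log2 difference without ML day 3 replicate 1 was -1.21 (adjusted p = 0.0106).

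Acly was also lower than in undifferentiated cells in ML day 1 (log2 -0.92, adjusted p = 0.0469), EB day 3 (-0.92, 0.0392) and EB day 4 (-0.77, 0.0484), while EB day 1 differed by -0.49 and was not called. Those 3 calls were each lost without any 1 of the 4 arrays compared, with adjusted p from 0.105 to 0.185. Acly was the only member called in both culture formats in the same direction at a day they share.

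Fasn, the fatty acid synthase, read 6.50 and 5.81 in undifferentiated cells, then 7.93 and 7.82, 7.60 and 7.04, and 7.22 and 6.77 in EB days 1, 3 and 4. It read 7.24 and 7.15 in ML day 1 and 6.42 and 7.06 in ML day 3. Both EB day 1 arrays were the highest of the 12, and the undifferentiated arrays were below all except ML day 3 replicate 1. Fasn was 3.30-fold higher in EB day 1 than in undifferentiated cells (log2 1.72 ± 0.32 SE, adjusted p = 0.0142) and 2.26-fold higher in EB day 3 (1.17 ± 0.32, 0.0295). Its other probe differed by 2.14 and 1.63. In EB day 4 the difference was 0.85 (adjusted p = 0.0626) and in ML day 1 1.04 (0.053). The EB day 1 call was lost without undifferentiated replicate 2 or either EB day 1 array (adjusted p 0.0723 to 0.0936), and the EB day 3 call without undifferentiated replicate 2 or EB day 3 replicate 1 (0.158 and 0.155). The EB day 3 call was also lost with quantile normalization (0.98, adjusted p = 0.0600) and with the authors' values (0.94, 0.0620).

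Of the 4 desaturases, Scd1, Fads1 and Scd2 were called. Scd1, a stearoyl-CoA desaturase that makes oleate, had the widest range of group means of the 30 members, 2.65. It read 1.32 and 1.53 in undifferentiated cells, then 1.20 and 0.82, 1.20 and 1.33, and 2.61 and 2.26 in EB days 1, 3 and 4. In monolayers it read -0.37 and -0.06 at day 1 and -0.40 and 0.68 at day 3, so that all 4 monolayer arrays were below all 8 others. Scd1 was 3.13-fold lower in ML day 1 than in undifferentiated cells (log2 -1.64 ± 0.34 SE, adjusted p = 0.0159) and lower in ML day 3 by -1.29 (0.0241), but 2.01-fold higher in EB day 4 (1.01 ± 0.34, 0.0389).

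Leaving out undifferentiated replicate 2 or either ML day 1 array ended the Scd1 call in ML day 1 (adjusted p 0.0743 to 0.0936). Leaving out either undifferentiated array or ML day 3 replicate 1 ended that in ML day 3, where the difference without ML day 3 replicate 1 was -0.75 (0.0969). The EB day 4 call was lost without any 1 of the 4 arrays (0.0733 to 0.183).

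Fads1, the delta-5 desaturase of polyunsaturated fatty acids, read 1.47 and 1.63 in undifferentiated cells, then 1.37 and 1.05, 1.24 and 1.24, and 1.48 and 1.31 along the embryoid body days. It read 0.46 and 0.74 in ML day 1 and 0.58 and 0.78 in ML day 3, again with all monolayer arrays below all others. Fads1 was 1.93-fold lower in ML day 1 than in undifferentiated cells (log2 -0.95 ± 0.20 SE, adjusted p = 0.0181) and lower in ML day 3 by -0.87 (0.0161). The calls were lost without undifferentiated replicate 2 (0.0901 and 0.0724), the first also without either ML day 1 array (0.112 and 0.0746) and the other without ML day 3 replicate 1 (0.0602).

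Scd2, the stearoyl-CoA desaturase that predominates in embryonic and neural tissue, read 5.18 and 4.90 in undifferentiated cells, then 5.82 and 5.43, 5.90 and 5.93, and 6.03 and 5.70 along the embryoid body days, against 4.19 and 4.66 in ML day 1 and 4.52 and 5.19 in ML day 3. It was 1.77-fold higher in EB day 4 than in undifferentiated cells (log2 0.82 ± 0.29 SE, adjusted p = 0.0459), a call lost without any 1 of the 4 arrays (0.0709 to 0.215). ML day 3 replicate 2 was above both undifferentiated arrays. Fads2, the delta-6 desaturase, was not called, and its monolayer and embryoid body arrays overlapped, at 1.21 and 1.68 in ML day 1, 0.15 and 1.52 in ML day 3, and 1.46 to 2.16 in embryoid bodies. Elovl6, the elongase of palmitate, had the narrowest range of group means of all members, 0.52. It read 3.26 and 3.11 in undifferentiated cells and lay between 2.50 and 3.32 on the other 10 arrays.

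**Figure D4:**
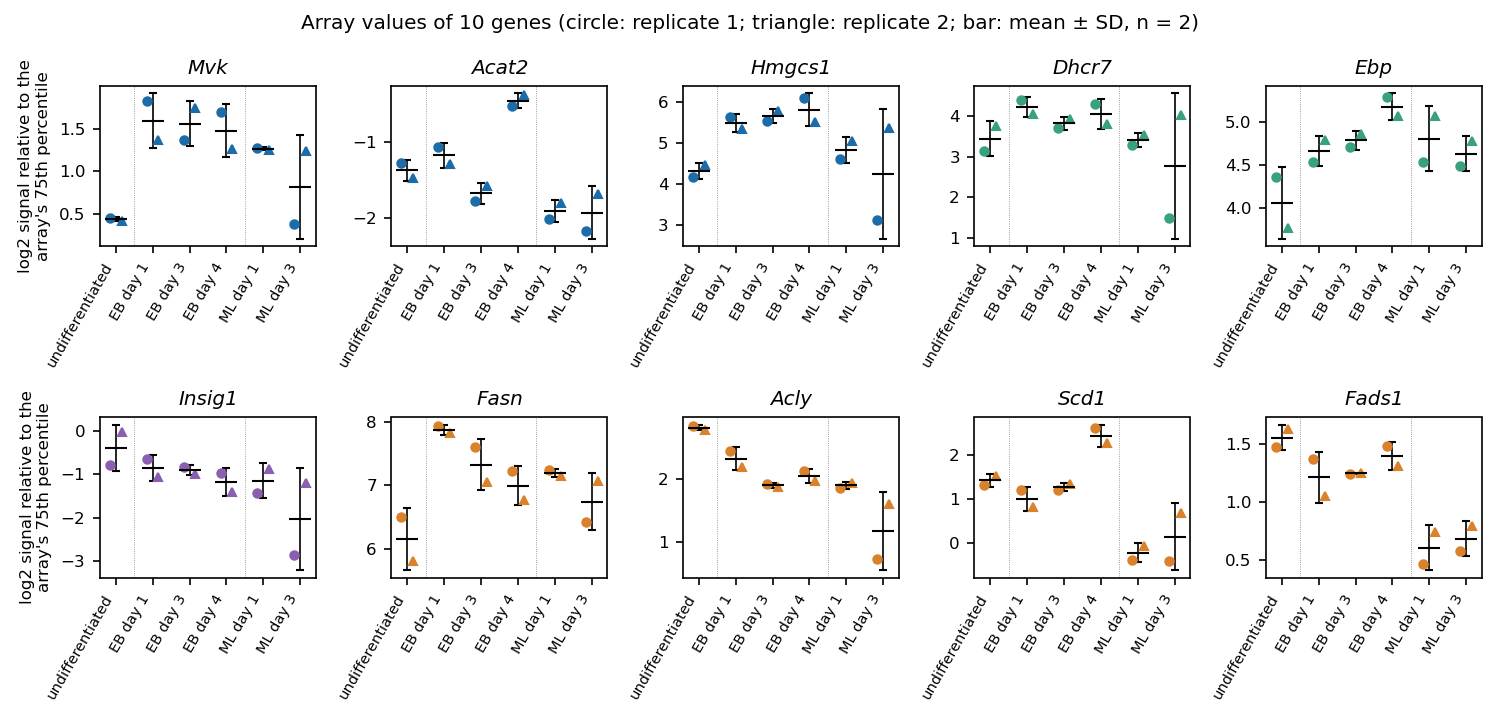
Array values of 10 of the genes, as log2 signal relative to the array's 75th percentile (vertical axes differ between genes) in undifferentiated cells, EB days 1, 3 and 4 and ML days 1 and 3. Horizontal bars with whiskers give the mean ± SD of 2 arrays, and the monolayer points of Scd1 and Fads1 lie below all other points of those genes.

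Embryoid bodies were then set against monolayers of the same day. These groups lie on different slides of 1 scan day, so culture format cannot be told apart from slide. At day 1, 0 of 30 members were called by limma, where 0.0677% of all genes were, and 7 had an unadjusted p under 0.05 (9.27% of all genes). Even so, 29 of 30 members had the higher mean in embryoid bodies: 17 of 18 sterol enzymes (median log2 difference 0.63), 4 of 4 genes of regulation and transport (0.40) and 8 of 8 fatty acid genes (0.64). Of all genes, 43.5% were higher, with a median of -0.06. Both embryoid body arrays lay above both monolayer arrays for 24 of 30 members, against 22.6% of all genes. The exception was Ebp, at -0.14.

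Tm7sf2 had the largest difference at day 1, reading 1.89 and 1.64 in EB, against 0.14 and 0.32 in ML (log2 1.54 ± 0.42 SE, adjusted p = 0.287). Scd1 read 1.20 and 0.82 in EB, against -0.37 and -0.06 in ML (1.22 ± 0.34, adjusted p = 0.287). Scd2 read 5.82 and 5.43 in EB, against 4.19 and 4.66 in ML (1.20 ± 0.29, adjusted p = 0.213). None of these passed the test, although the arrays of the groups did not overlap for these genes.

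At day 3, 0 of 30 members were called, where 3.32% of all genes were, and 12 had an unadjusted p under 0.05 (17.7% of all genes). The higher mean lay in embryoid bodies for 30 of 30 members, with medians of 0.74 in sterol enzymes, 1.00 in regulation and transport and 0.66 in fatty acid genes, while 52.4% of all genes were higher with a median of 0.02. Both embryoid body arrays lay above both monolayer arrays for 16 of 30 members, against 20.9% of all genes. These were 6 of 18 sterol enzymes and 6 of 8 fatty acid genes, with the rest in regulation and transport.

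Without ML day 3 replicate 1, 24 of 30 members were higher in EB day 3, and 1 had an unadjusted p under 0.05 (14.3% of all genes). Of the sterol enzymes 12 of 18 were higher with a median of 0.05, and of the fatty acid genes 8 of 8 with a median of 0.33, and the difference between the sets was not tested. The largest difference from the remaining array was 0.83, in the sterol enzyme Hsd17b7, while the fatty acid gene Acaca differed by 0.0051. Scd1, Scd2 and Fads1 differed by 0.59, 0.72 and 0.46 from the remaining array, whereas Fdps and Dhcr7 differed by -0.37 and -0.22. Without ML day 3 replicate 2 instead, 30 of 30 members were higher in EB day 3 and the sterol median was 1.33. Without ML day 1 replicate 1, the day 1 count was 26 of 30 and the sterol count 14 of 18 (median 0.36). Without EB day 1 replicate 1 the sterol count was 16 of 18 (0.40). By probe, 52 of 57 were higher in EB at day 1 and 56 of 57 at day 3.

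**Figure D5:**
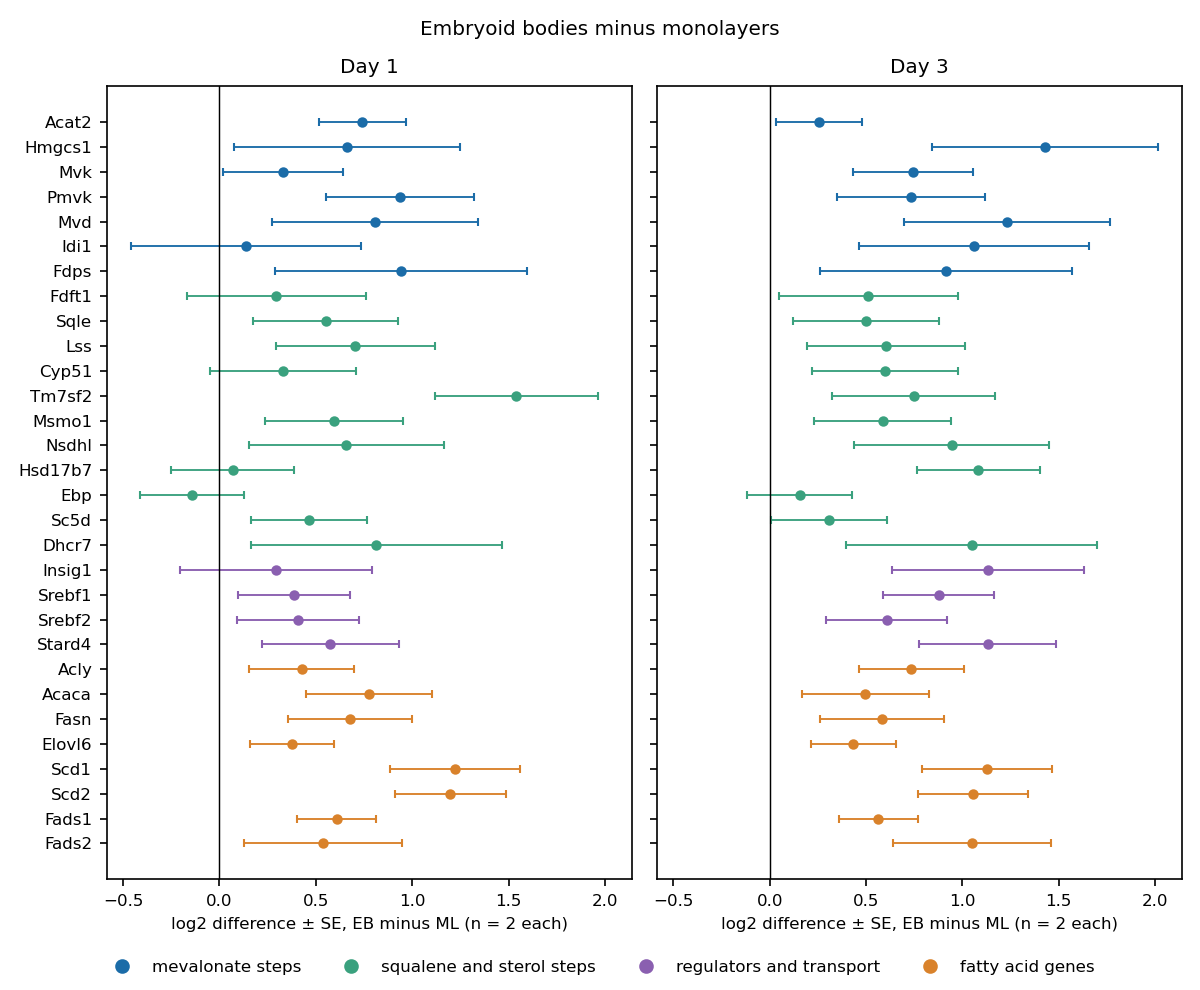
Log2 difference between embryoid bodies and monolayers (EB minus ML, horizontal axis) at day 1 and day 3 for each of the 30 genes, with bars of ± 1 SE from the fit to all arrays (n = 2 arrays per group). Points lie right of 0 for 29 genes at day 1 and all 30 at day 3, and 0 genes were called in either comparison.

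Between days of a culture format, 1 member was called. EB day 3 against EB day 1, which share a slide, had 0 called members, where 5.42% of all genes were called, and 0 with an unadjusted p under 0.05 (20.1% of all genes). The mean was lower in EB day 3 for 15 of 18 sterol enzymes (median -0.24) and 5 of 8 fatty acid genes (-0.09), against a median of -0.08 over all genes. Without EB day 1 replicate 1, 8 of 18 sterol enzymes were higher and the median was -0.03, and the fatty acid median was 0.06. ML day 3 against ML day 1, also on 1 slide, had 0 called members, where 12.4% of all genes were called, and 2 with an unadjusted p under 0.05 (29.9% of all genes).

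The mean was lower in ML day 3 than in ML day 1 for 16 of 18 sterol enzymes (median -0.41), but without ML day 3 replicate 1 it was higher for 15 of 18 (median 0.25). Without ML day 3 replicate 2, the mean in ML day 3 was higher for 1 of 18 sterol enzymes (median -0.94). Whether the day change differed between the formats was tested as an interaction, which called 0 of 30 members (0.243% of all genes), with 1 member at an unadjusted p under 0.05 (10.2% of all genes). The day change was more positive in embryoid bodies for 17 of 30 members and 10 of 18 sterol enzymes, but without ML day 3 replicate 1 for 5 of 30 and 2 of 18. EB day 4 against EB day 3, across slides and scanners, had higher means for 13 of 18 sterol enzymes (median 0.21) and 3 of 8 fatty acid genes (-0.08), and Acat2 was the member called, with 3 members at an unadjusted p under 0.05 (29.9% of all genes). Without EB day 4 replicate 1 the sterol count was 9 of 18 with a median of -0.00422, and without replicate 2 it was 18 of 18 (0.41).

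Of the genes that process the sterol regulatory element-binding proteins, 1 of 4 was called. Of Scap, Mbtps1, Mbtps2 and Insig2, limma called Mbtps1, the site-1 protease that cleaves the precursors. It was higher by a log2 of 0.71 in EB day 3 and 0.71 in EB day 4 than in undifferentiated cells (adjusted p = 0.0427 and 0.0288), and no gene of the list was called in the other 9 comparisons. Of 7 measured genes of the isoprenoid branches, Pggt1b, a subunit of the enzyme that attaches geranylgeranyl groups to proteins, was higher in ML day 3 (1.26, adjusted p = 0.0395) and EB day 4 (1.45, 0.0137). The farnesyltransferase subunits Fnta (-1.10, 0.0109) and Fntb (-0.62, 0.0294) were lower in EB day 4. Each call of Mbtps1 and Fntb was lost without any 1 of the 4 arrays compared. That of Fnta was lost without either EB day 4 array. The Pggt1b call in ML day 3 was lost without ML day 3 replicate 1 or undifferentiated replicate 2. Its EB day 4 call was lost without either EB day 4 array or undifferentiated replicate 2.

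Of 20 genes of fatty acid supply and elongation, limma called 2 higher and 0 lower in EB day 1 against undifferentiated cells, 2 and 1 in ML day 1, 2 and 2 in EB day 3, 3 and 3 in ML day 3, and 3 and 3 in EB day 4. These are 2, 3, 4, 6 and 6 of 20, where 13.4%, 18%, 23.7%, 23.5% and 40.8% of all genes were called. Hacd1, a dehydratase of the elongation cycle, was higher in all 5 comparisons, by 1.05 in ML day 1 (adjusted p = 0.0303) up to 1.85 in EB day 3 (0.00225), and its day 1 calls were lost without any 1 of the 4 arrays. Acsl4, an acyl-CoA synthetase with a preference for polyunsaturated acids, was higher by 1.88 in EB day 1 (limma adjusted p = 0.00692). That call was lost without EB day 1 replicate 1. Acacb, the mitochondrial acetyl-CoA carboxylase, was lower by -2.49 in EB day 4 (0.000875) and by -2.10 in ML day 3 against ML day 1 (0.00818). The call between the monolayer days was lost without ML day 3 replicate 1 (log2 -1.71) or ML day 1 replicate 2.

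Acss2, the acetyl-CoA synthetase that uses acetate, was lower by -1.63 in ML day 1 (0.0437) and -1.73 in ML day 3 (0.0286) than in undifferentiated cells. The ML day 3 difference without its replicate 1 was -0.96. The ML day 3 call was lost in that fit and without undifferentiated replicate 2. The ML day 1 call was lost without either ML day 1 array or undifferentiated replicate 2. Mlxipl, the carbohydrate-responsive factor of lipogenic genes, was lower by -2.23 in EB day 4 against undifferentiated cells (0.00432). Thrsp, a lipogenic protein, fell short of the background flag in EB day 4 and was at least 4.53-fold lower there (0.00566). The bound is the mean of undifferentiated cells over the lowest signal well above background on the dim arrays.

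Markers were checked against the labels as mean log2 level of a list. All 8 pluripotency genes were measured and averaged 0.64 and 1.03 in EB day 4, against 4.96 and 5.08 in undifferentiated cells, and limma called 8 of 8 lower in EB day 4. All 6 primitive streak genes were called higher in EB day 3, ML day 3 and EB day 4 than in undifferentiated cells. Of 13 markers of extraembryonic endoderm, a lipid-transporting cell type, 11 were measured and Ttr and Apoa1 were not above the filter. The log2 of their summed signal was 2.85 and 1.61 in EB day 1, 5.89 and 5.87 in EB day 3, and 5.90 and 5.61 in EB day 4. It was 0.83 and 1.17 in ML day 1, 2.45 and 2.59 in ML day 3, and 1.32 and 1.31 in undifferentiated cells. The sum follows part of the list and does not identify the cell type. In EB day 3 against ML day 3, Gata6, Sox17, Foxa2 and Gata4 were called higher and 0 of 11 lower, while 5 of 11 had the lower mean, Amn at -1.08, Cubn at -0.46 and Hnf4a at -0.07 among them. The calls of Foxa2 and Gata4 were lost without ML day 3 replicate 1 or EB day 3 replicate 2. That of Foxa2 was also lost without EB day 3 replicate 1. Apob was not well above background in EB days 1, 3 and 4. Against undifferentiated cells, 5 of 11 were called higher and 1 lower in EB day 3, and 5 higher and 2 lower in EB day 4.

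Of 13 fibroblast markers, 11 were measured, and Lum and Postn were not above the filter. Their summed log2 signal lay between 2.71 and 4.10 on the 10 arrays of differentiating cells, against 5.20 and 4.11 in undifferentiated cells. The mean of 10, 10 and 8 of the 11 was lower in EB days 1, 3 and 4, and of 9 and 7 in ML days 1 and 3, than in undifferentiated cells. Part of the endoderm list thus moved with EB days 3 and 4, and most of the fibroblast list with undifferentiated cells, and their part in the levels of the sterol and fatty acid genes was not tested.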

How the data were processed

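Values came from 12 scanner files, 1 per array, which the authors deposited as Agilent Feature Extraction output. Per the file headers, the processed signal is a background-subtracted intensity on a linear scale, with other columns for flags (well above background, outlier, saturated). The headers give software 10.5.1.1, 10.7.3.1 and 10.7.1.1, whereas the submitters' processing notes name Feature Extraction 9.5.1.1. The authors also deposited a table of linear intensity with equal quantiles on all arrays, used as an alternative (r 0.998 to 1.000 with the scanner files).

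Each array's log2 intensity, computed from the deposited signals, was set against its 75th percentile over 43379 non-control spots, after 51 to 172 outlier-flagged spots were dropped. No spot was saturated. Of 41174 probes, 26167 were well above background on both arrays of at least 1 group. Of all 41174, 24844 probes took their symbol through a RefSeq accession, 7855 through a name found in both sources and 8475 as the files write it. The probe with the highest mean stood for its gene, which left 17722 genes.

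limma 3.58.1 in R 4.3.3 fitted 6 group means to 12 arrays, with 11 comparisons and Benjamini-Hochberg adjustment over all genes (adjusted p under 0.05). The test was checked on simulated data for the 2 EB groups of days 1 and 3 (17722 genes): calls were made for 12 of 67 genes moved by 1 log2 unit, 52 of 67 by 2 and 60 of 66 by 3. Another 12 calls fell on genes that were not moved. Each simulated gene had the same spread in every group, whereas the real ML day 3 arrays differed more than those of other groups. The number of arrays limits the precision. Clone numbers did not pair the arrays: correlations of deviations ran from -0.155 to 0.226. The members and lists were chosen with earlier results of these data known. Named genes were all called members, the members with the widest and narrowest range of group means in each class, and up to 3 called genes of other lists per comparison. Alternatives changed the background correction, normalization, values, filter, probe rule, block, samples fitted and each array. Counts of direction under each alternative, the group extremes without ML day 3 replicate 1, and the gap and the other lists without each array were added after seeing the data. Fads2, Fdft1, Acaca and Mylip are also named after their values were seen.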

Additional observations from a re-analysis of the deposited data

How the results depend on the processing

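Of the values of called members under all alternatives, 156 kept direction and call, 96 kept direction but lost the call, and 0 changed sign. Of 21 calls, the number not made was 14 with the compared groups alone, 6 without the filter on dim probes, 5 with the mean of probes, 2 with the authors' values, 2 with quantile normalization and 1 with normexp background. For the gap between the sets, leaving out 1 of 2 arrays cannot move a mean beyond 1 SD, so it says nothing about stability. The sign differed between the arrays of EB day 3 (-0.17 and 0.06) and of ML day 3 (-0.34 and 0.24). Counts of called members moved as follows. EB day 1 against undifferentiated cells went to 1 with the authors' values, no filter on dim probes, the mean of probes, and the compared groups alone, against 2 reported. ML day 1 gave 0 with the compared groups alone, against 3. EB day 3 gave 6 with normexp background, 1 without the filter and 1 with the compared groups alone, against 3. ML day 3 gave 3 without the filter, 3 with the mean of probes and 0 with the compared groups alone, against 5. EB day 4 against EB day 3 gave 2 with normexp, quantile normalization, the authors' values, no filter and a strict filter, and 0 with the compared groups alone, against 1. EB day 3 against ML day 3 gave 1 with quantile normalization and 1 with the authors' values, against 0. The cause was not tested. The shares of all genes called under the same settings are not set beside these counts, so the counts are no result particular to the members.

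Leaving out 1 array at a time, called members ranged against undifferentiated cells from 0 to 1 in EB day 1, 0 to 4 in ML day 1, 0 to 2 in EB day 3, 1 to 12 in ML day 3 and 1 to 4 in EB day 4. They ranged from 0 to 11 for ML day 3 against ML day 1, 0 to 1 for EB day 4 against EB day 3 and 0 to 19 for EB day 3 against ML day 3, and stayed at 0 in the other comparisons. The highest values came without ML day 3 replicate 2. The shares of all genes called in the same fits are not set beside these ranges, so the ranges are no result particular to the members. With the clone number as a replicate block, the count in EB day 1 against undifferentiated cells was 1, and the others were within 1.5 times the reported count. Since the clone numbers did not pair the arrays, the block carries only a shared number. With it, 6 calls were not made (adjusted p 0.0504 to 0.0606): Mvk in EB day 1, Acly in ML day 1, EB day 3 and EB day 4, Hsd17b7 in ML day 3 and Scd2 in EB day 4.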

Other observations

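Of 7 measured genes of sterol efflux and its control by liver X receptors, limma called Abca1, the cholesterol exporter, lower than in undifferentiated cells in EB day 3 (log2 -3.15 ± 0.54 SE, adjusted p = 0.0043), ML day 3 (-3.31, 0.00364) and EB day 4 (-1.82, 0.0239). Abcg1, a related exporter, was lower in ML day 3 (-3.13, 0.0145) and EB day 4 (-2.34, 0.0277). Nr1h3, which encodes liver X receptor alpha, was higher in EB day 3 (1.67, 0.0064), ML day 3 (1.42, 0.0125) and EB day 4 (1.76, 0.00236). Mylip, a ligase that marks lipoprotein receptors for breakdown, was higher in EB day 4 than in EB day 3 (2.14, 0.0103) and than in undifferentiated cells (2.25, 0.00175). The call of Abcg1 in ML day 3 was lost without ML day 3 replicate 1 or undifferentiated replicate 2. That of Nr1h3 in ML day 3 was lost without undifferentiated replicate 2. In EB day 4 the Abcg1 call was lost without either EB day 4 array or undifferentiated replicate 2. The Abca1 call was lost there without replicate 1 of EB day 4 or of undifferentiated cells. The Mylip call against EB day 3 was lost without EB day 3 replicate 1 or EB day 4 replicate 2. The other calls of these genes held. Of 9 uptake and transport genes, Lipa, the lysosomal acid lipase, was lower in all 5 groups than in undifferentiated cells, by -0.74 in EB day 4 to -1.49 in ML day 1. Stard3, a late endosomal sterol carrier, was higher in EB days 1, 3 and 4 (0.85, 0.98 and 1.59) and in ML day 3 (0.83). Soat1, which esterifies cholesterol, was higher in ML day 3 than in ML day 1 (1.46, 0.00594), arrays of 1 slide, and was called without each of the 4 arrays in turn. The Stard3 calls in EB day 1 and ML day 3 were lost without any 1 of the 4 arrays. Its EB day 3 call was lost without replicate 2 of EB day 3 or of undifferentiated cells. Each Lipa call in EB days 1, 3 and 4 was lost without either array of that day. In EB days 3 and 4 it was also lost without undifferentiated replicate 1.

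Of 9 measured genes of fatty acid oxidation, Cpt1a, which admits fatty acids to mitochondria, fell short of the background flag in EB day 4 and was at least 35.9-fold lower there than in undifferentiated cells (limma adjusted p = 9.86e-05). It was lower by -2.53 in EB day 3 and -1.81 in ML day 3. Both of these calls were lost without undifferentiated replicate 2 or replicate 2 of the group compared. Acadl, a long-chain acyl-CoA dehydrogenase, was higher than in undifferentiated cells in EB day 1 (0.99), EB day 3 (1.18) and ML day 3 (1.53). Its EB day 1 call was lost without any 1 of the 4 arrays. Comparisons with undifferentiated cells cannot be told apart from slide and scan day.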
